A study of Homo sapiens with 6 samples.

Results

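The genes of 7 transcription factors tied to the mesenchymal state, TWIST1, PRRX1, SNAI2, ZEB1, ZEB2, RUNX1 and RUNX2, were examined for DNA contacts in the G401 line before and after return of the chromatin remodelling subunit SMARCB1. A contact belonged to a gene when either of its anchors, the pair of DNA segments that a loop joins, overlapped the gene body with 5 kb added to each side (hg19), and its paired-end tags (PETs, the sequenced fragments that link both anchors) were summed per gene. By this rule 2 of the 7 genes, ZEB1 and RUNX2, had any listed contact, and the other 5 had none in any library. The members' contacts numbered 3 to 21 loops per library, out of 44104 to 164053 loops listed.

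The assay was HiChIP, which ligates DNA ends that lie close together in the nucleus and then enriches them with an antibody. G401 cells come from a human rhabdoid tumour, are a standard cell line and have lost both SMARCB1 copies, and the derivative used here carries an inducible SMARCB1 that is switched on by doxycycline at 1 μg/ml. There were 3 groups of 2 libraries each. They were H3K27ac, a histone mark of active promoters and enhancers, in SMARCB1 -/- cells at day 0; H3K27ac at day 3 of SMARCB1 re-expression; and ARID1A, a subunit of the SWI/SNF remodelling complex, at day 3. Drug, SMARCB1 and time in culture changed together between day 0 and day 3, and their parts in a difference cannot be told apart because no library had doxycycline alone. Whether the replicates were separate cultures is not in the labels, and the p-values then measure the spread of these libraries alone, which could be technical. All groups come from a single cell line, and contacts give no expression level, so neither the labelled cell type nor SMARCB1 re-expression could be checked against RNA.

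TWIST1 is a basic helix-loop-helix factor, SNAI2 a zinc finger repressor of the Snail family, and ZEB1 and ZEB2 are zinc finger and homeobox factors that repress epithelial genes such as that of E-cadherin by binding E-boxes. PRRX1 is a paired-type homeobox factor of limb and craniofacial mesenchyme. RUNX1 and RUNX2 bind DNA together with the partner CBFB, RUNX1 being best known from blood formation and RUNX2 from bone.

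Promoter sequences are shown for ZEB1 and RUNX2 because they were the members with an anchor inside the gene. They are RefSeq sequences of GRCh38.p14, 250 bases before to 50 bases after an annotated start, and capitals mark matches to 3 motifs, searched on both strands. The E-box bound by ZEB and Snail factors was searched as CACCTG. The motif of RUNX factors was searched as TGTGGT, so that its matches also appear as the reverse complement. The motif of AP-1, the Fos and Jun dimer, was searched as TGANTCA. The ZEB1 start at chr10:31318966-31319265, plus strand, held 3 E-box matches and 1 RUNX match, and the first E-box overlaps the RUNX match. The RUNX2 start at chr6:45328080-45328379, plus strand, held 1 AP-1 match and 4 RUNX matches.
ZEB1: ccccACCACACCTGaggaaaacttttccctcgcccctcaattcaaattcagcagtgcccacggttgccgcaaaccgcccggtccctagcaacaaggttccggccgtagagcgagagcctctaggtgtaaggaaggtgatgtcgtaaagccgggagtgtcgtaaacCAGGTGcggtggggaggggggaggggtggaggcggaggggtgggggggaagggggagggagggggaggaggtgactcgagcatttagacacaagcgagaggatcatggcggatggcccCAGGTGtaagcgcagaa
RUNX2: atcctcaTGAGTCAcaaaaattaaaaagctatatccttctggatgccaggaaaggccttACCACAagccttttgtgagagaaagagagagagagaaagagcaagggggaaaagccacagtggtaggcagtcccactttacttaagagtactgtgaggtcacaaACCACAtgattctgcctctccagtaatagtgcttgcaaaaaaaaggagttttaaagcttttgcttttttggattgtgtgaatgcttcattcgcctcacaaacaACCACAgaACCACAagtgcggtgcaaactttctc
The table held 7 ZEB1 starts, of which 2 had an E-box and 2 a RUNX match, and 2 RUNX2 starts, of which 1 had AP-1 and RUNX matches. It held 1 start each for PRRX1, ZEB2 and RUNX1, none of which had any of the 3 motifs, and TWIST1 and SNAI2 were not matched. Over all 35116 promoters of this length, 20.6% held the E-box, 13.1% the RUNX motif and 7.71% the AP-1 motif. These matches describe letters only. The loop files use hg19, so whether an anchor covers these letters was not tested.

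The libraries held between 253502 PETs, in the second H3K27ac day 0 library, and 982141 PETs, in the second H3K27ac day 3 library. The H3K27ac groups listed 8663 distinct anchors at day 0 and 17421 at day 3, and ARID1A listed 26762. Anchors were nearly the same within a group and nearly all different base for base between groups. A gene without a listed anchor in a group was therefore not measured there, and no fold is given for it. With 2 libraries against 2, an exact permutation test of a single value cannot pass the 0.05 threshold.

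Contacts of ZEB1 were listed at day 3 in H3K27ac and in neither other group. The gene lies at chr10:31608101-31818742 in band 10p11.22. The H3K27ac day 3 libraries held 27 and 20 PETs in 14 and 13 loops, or 29.1 and 20.4 counts per 1000000 listed PETs (CPM), with a mean of 24.7 CPM ± 6.15 (SD, n = 2). No ZEB1 loop was listed in the H3K27ac day 0 or ARID1A libraries. All ZEB1 contacts came from 1 anchor of 5796 bp, chr10:31606408-31612204, which covers the lower end of the gene interval, its annotated start. At a deposited loop value of 0.01 or less, 5 and 3 of these loops were left.

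The ZEB1 anchor reached 19 partner anchors, 8 of them in both replicates. There were 8 partners on the lower-coordinate side with 13 PETs and 11 on the higher side with 34 PETs, and spans ran from 262 to 2000 kb with a median of 1583 kb. The partner with most PETs was chr10:32041288-32051755, 437 kb away, with 7 and 3 PETs. Next came chr10:32214213-32220711 and chr10:32337629-32348929, at 608 and 734 kb, each with 2 and 2 PETs. The strongest contacts of the ZEB1 start thus lay on the higher-coordinate side, toward LOC124906892 and ARHGAP12 in the order of RefSeq protein-coding genes and away from ZNF438. Within 500 kb of ZEB1, H3K27ac at day 3 listed 5 anchors on the higher side and 1 on the lower, so few near partners were available below. Of the 19 partners, 15 overlapped an H3K27ac anchor already listed at day 0 and 15 overlapped an ARID1A anchor. Of all H3K27ac day 3 anchors, after merging those that overlap between groups, 43.2% were also listed at day 0 and 76.1% in ARID1A. The partners were counted by direct overlap without this merging, so the measures are not quite alike. So the anchor at the ZEB1 start was absent from the day 0 list while most of its partners were on it.

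**Figure D1:**
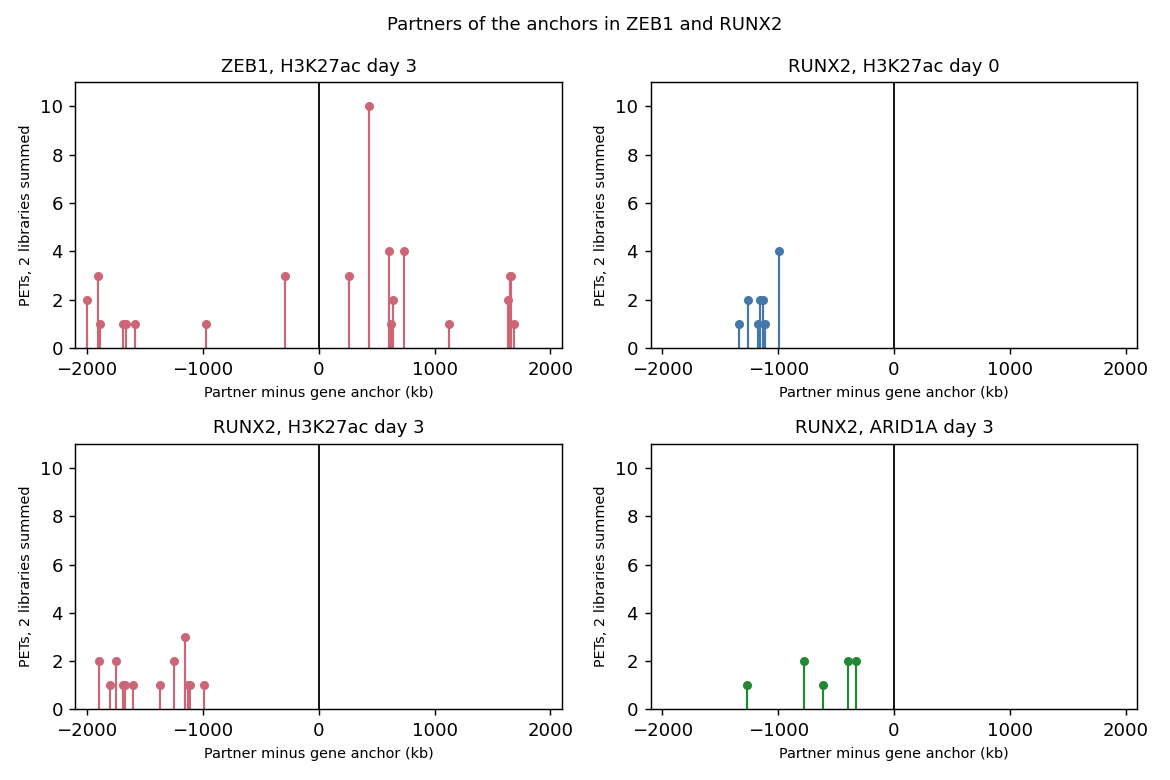
Partners of the anchors inside ZEB1 and RUNX2, by the distance in kb from the middle of the gene's anchor to the middle of the partner (x axis) and by PETs summed over the 2 libraries of a group (y axis). Each stem is 1 partner. The ZEB1 anchor reached 11 partners to the right, the tallest with 7 and 3 PETs at 437 kb, and 8 to the left, while every RUNX2 partner lies to the left. For H3K27ac no anchor to the right of RUNX2 lay within the longest listed span of 2000 kb.

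RUNX2 was the only member with listed contacts in all 3 groups, and its counts were low. The gene lies at chr6:45296054-45518819 in band 6p21.1. The H3K27ac day 0 libraries held 6 and 7 PETs (19.9 and 27.6 CPM), the H3K27ac day 3 libraries 9 and 8 PETs (9.69 and 8.15 CPM), and the ARID1A libraries 5 and 3 PETs (11.5 and 6.42 CPM). The means were 23.8 CPM ± 5.46 at day 0, 8.92 CPM ± 1.09 at day 3 and 8.95 CPM ± 3.59 for ARID1A (SD, n = 2 each). Both day 0 values lay above both day 3 values as a share of the library, although day 3 had more PETs. The ARID1A values lay on both sides of those of H3K27ac at day 3.

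The RUNX2 anchor of the H3K27ac groups lay inside the gene and away from its lower end. It was 4307 bp at day 0, chr6:45343246-45347553, and 6207 bp at day 3, chr6:45341527-45347734. The ARID1A anchor, chr6:45410164-45415291, was a different segment of the gene, so the antibodies are compared over the gene and not at a shared site. All RUNX2 partners, 7 at day 0, 12 at day 3 and 5 for ARID1A, lay on the lower-coordinate side, the side of SUPT3H in RefSeq gene order. That order goes by start coordinate only. Whether SUPT3H overlaps RUNX2 or these anchors was not tested, so the contacts may not belong to RUNX2 alone. Their spans were 989 to 1336 kb, 989 to 1899 kb and 329 to 1268 kb. The nearest anchor beyond the gene on the higher side was 6629 kb from the gene's end at day 0, 1925 kb at day 3 and 103 kb for ARID1A. No listed loop spanned more than 2000 kb. Measured from the H3K27ac anchor inside RUNX2, the higher-side H3K27ac anchors lay beyond that span at both times. The side of the H3K27ac partners was thus fixed in advance, and only ARID1A had a higher-side anchor within reach. At day 0 the top partner was chr6:44353740-44359048 with 2 and 2 PETs, and at day 3 it was chr6:44183582-44197643 with 1 and 2 PETs.

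The planned comparison counted each gene with 5 kb added together with fixed windows of 100 kb and kept windows with an anchor in both groups and at least 10 PETs in 2 libraries. No member met both conditions in either comparison, so 0 members were tested. ZEB1 had the PETs at day 3 but no anchor in the other group of either comparison, RUNX2 had anchors in all groups but too few PETs, and the other 5 had no anchor. In edgeR's quasi-likelihood test with Benjamini-Hochberg adjustment, 64.6% of the 5121 windows tested passed for H3K27ac day 3 against day 0, and 80.1% of 7577 for ARID1A against H3K27ac at day 3. Without the minimum, RUNX2 was tested and fell by 1.67 on the log2 scale (SE 0.57) from day 0 to day 3, with an adjusted p of 0.00662 in the same edgeR test. In that fit 61.6% of windows passed, so such a call was common, though the RUNX2 window was longer (233 kb) than the fixed ones. ARID1A against H3K27ac at day 3 gave RUNX2 a log2 fold change of -0.13 (SE 0.64, adjusted p = 0.860, edgeR), where 75.6% of windows passed. These RUNX2 values rest on 30 PETs for the first comparison and 25 for the second.

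**Figure D2:**
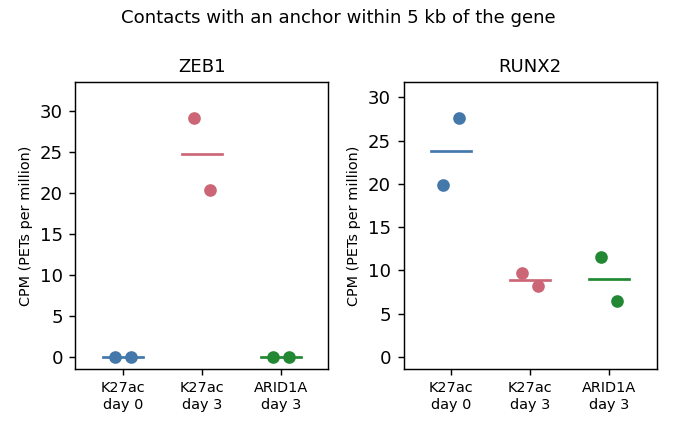
Contacts with an anchor within 5 kb of ZEB1 or RUNX2, in CPM (y axis), for H3K27ac at day 0, H3K27ac at day 3 and ARID1A at day 3. Points are libraries and bars group means, and 0 stands for no listed loop. ZEB1 has values of 29.1 and 20.4 in the H3K27ac day 3 libraries, and RUNX2 is highest at day 0.

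TWIST1, PRRX1, SNAI2, ZEB2 and RUNX1 had 0 listed PETs in all 6 libraries. Over the whole genome, windows as long as that of TWIST1 (12.2 kb) held an anchor in 5.10% of cases at day 0, 10.1% at day 3 and 15.0% for ARID1A. For the longest member window, that of RUNX1 (271 kb), the shares were 30.8%, 43.1% and 50.5%. A member with no anchor was thus the more frequent outcome for windows of every member's length at both H3K27ac times.

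The surroundings of the members differed widely. Anchors within 500 kb were absent for 3 of the 7 genes at day 0 (TWIST1, SNAI2 and ZEB2), for the same 3 at day 3, and for 1 gene, ZEB2, in ARID1A. Among 100 kb windows of the genome, 44.5%, 32.6% and 28.2% had no anchor within 500 kb in these groups, and the medians were 1, 3 and 5 anchors. ZEB2, at chr2:145141942-145277958 in 2q22.3, had no anchor within 2000 kb in any group, and its nearest one lay 3416 kb away, in ARID1A. RUNX1 had the most anchors at day 3, and ZEB1 the most at day 0.

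**Figure D3:**
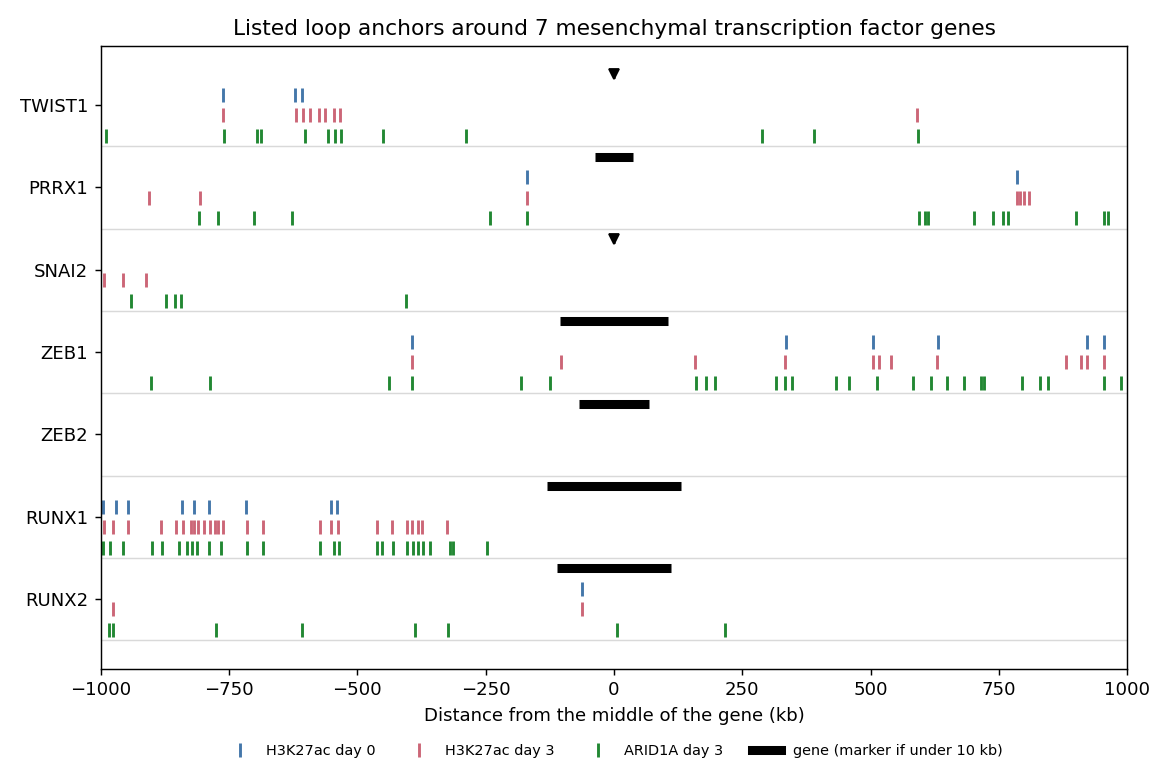
Listed loop anchors around the 7 genes, by distance from the middle of the gene in kb (x axis), with 1 line per group under each gene. Ticks are anchors and black bars or triangles the genes. ZEB2 has no tick, and the ticks of RUNX1 all lie on the lower-coordinate side.

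Contacts of anchors within 500 kb of each gene were summed as a wider measure. That width was set after the sums had been seen. RUNX1 had 174 and 115 PETs at day 0, 945 and 1011 at day 3 and 273 and 299 for ARID1A. ZEB1 had 19 and 17, 107 and 105, and 138 and 132 PETs. TWIST1 had none with H3K27ac and 29 and 31 with ARID1A. PRRX1 had 5 and 3 PETs at day 0, 6 and 9 at day 3, and 3 and 3 for ARID1A, and SNAI2 had 1 PET, in 1 ARID1A library. RUNX1 and ZEB1 thus carried most contacts near the members in every group.

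Per length, the RUNX1 surroundings ranked first in each group, with 408 ± 69.0, 811 ± 6.90 and 502 ± 6.90 CPM per 1000 kb (SD, n = 2 each, in the order H3K27ac day 0, H3K27ac day 3, ARID1A). Those of ZEB1 came next with 53.7 ± 2.39, 91.7 ± 4.82 and 248 ± 20.3 CPM per 1000 kb. At day 3 RUNX2 (7.29 ± 0.891) and PRRX1 (7.26 ± 1.78) followed and did not differ beyond their spread. At day 0 RUNX2 (19.4 ± 4.47) and PRRX1 (13.2 ± 3.12) overlapped within 1 SD. In ARID1A, TWIST1 came next after these with 66.3 ± 0.228, and then RUNX2 with 18.3 ± 8.61. The most alike pair by group profile was PRRX1 and RUNX2 (Euclidean distance 1.12 between centred log2 group means over 3 groups), and the least alike was PRRX1 and ZEB1 (2.33), among the 4 genes with a value in every group. The PRRX1 and RUNX2 profiles rest on 3 to 13 PETs per library, so this order is uncertain.

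**Figure D4:**
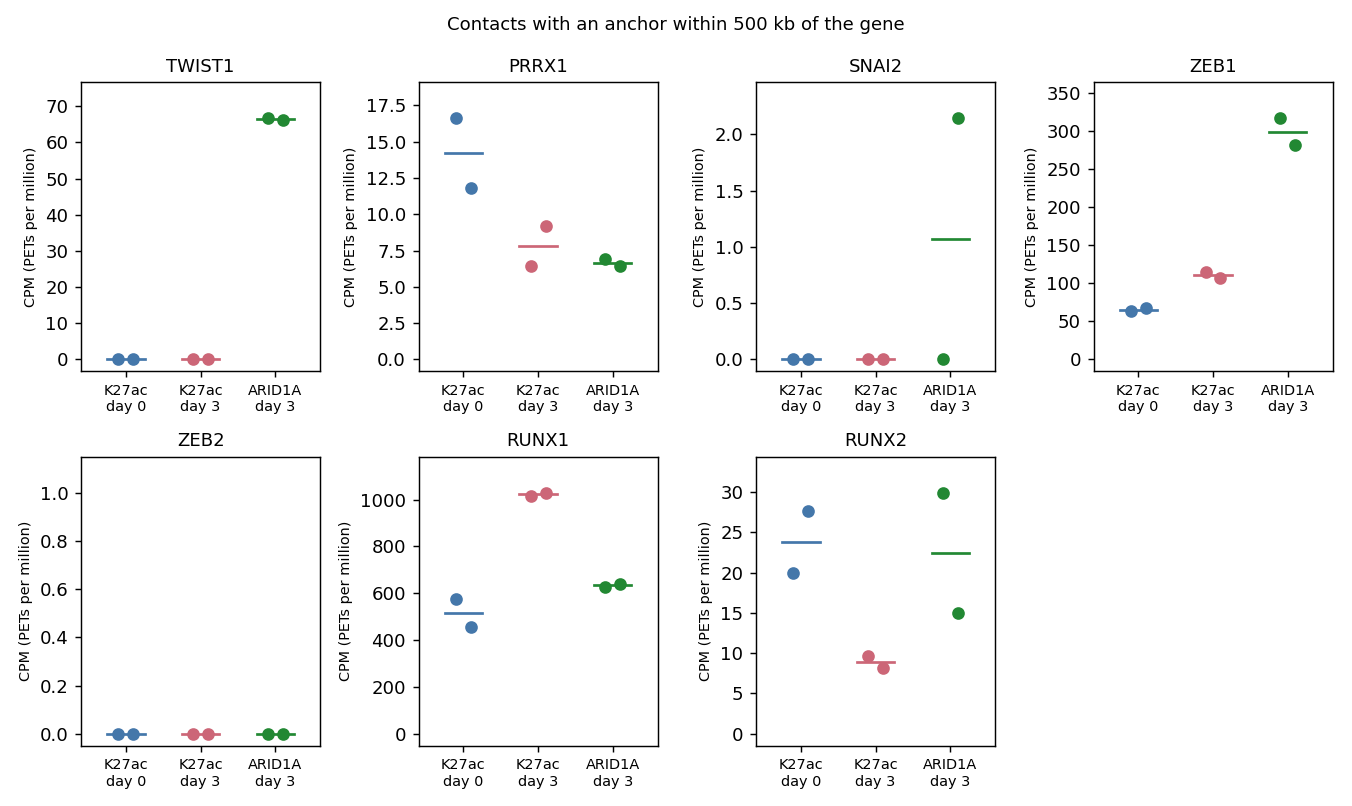
Contacts with an anchor within 500 kb of each gene, in CPM (y axis, a scale of its own for each gene), by group. Points are libraries and bars are group means, and 0 stands for no listed loop. RUNX1 is highest in H3K27ac at day 3, with 945 and 1011 PETs, while ZEB1 and TWIST1 are highest in ARID1A.

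RUNX1, at chr21:36160098-36421595 in 21q22.12, lay beside a dense group of anchors without holding one itself. Within 500 kb it had 2 listed anchors at day 0, 10 at day 3 and 14 in ARID1A, all on the lower-coordinate side, the side of CLIC6 and RCAN1 in RefSeq gene order. On the higher side the nearest anchor was 1010 kb away at day 0, 1009 kb at day 3 and 1010 kb in ARID1A. The nearest anchor on the lower side was 400 kb away at day 0, 192 kb at day 3 and 114 kb in ARID1A. The nearest listed anchor thus lay closer to RUNX1 at day 3, yet the gene and more than 1000 kb beyond it stayed without one. The H3K27ac list was also longer at day 3 (17421 anchors against 8663) and its libraries deeper. The part of this in the shorter distance was not tested.

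Anchors of all groups that overlapped were merged, which gave 14 merged anchors near RUNX1. There was 1 listed in all groups, 8 were listed in H3K27ac at day 3 and not at day 0 (7 of these also in ARID1A), and 5 were listed in ARID1A alone. Anchors listed in a single group were common everywhere: of 16175 merged H3K27ac day 3 anchors in the genome, 56.8% were not listed at day 0 (against 8 of 9 near RUNX1), 70.9% of those were listed in ARID1A (7 of 8), and of 25738 merged ARID1A anchors 51.1% were in neither H3K27ac group (5 of 13). The shared one, chr21:35735953-35759884, lies 400 kb from the gene and spanned 20507, 18676 and 18285 bp in the 3 groups. It held 174 and 115 PETs at day 0, 434 and 476 at day 3, and 88 and 103 in ARID1A. The 8 anchors new to the day 3 list held 71 to 131 PETs per library. Of these, chr21:35882283-35891562 was the highest in the first library, with 131 and 125 PETs, and chr21:35961896-35968336, the nearest to RUNX1, held 109 and 114.

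**Figure D5:**
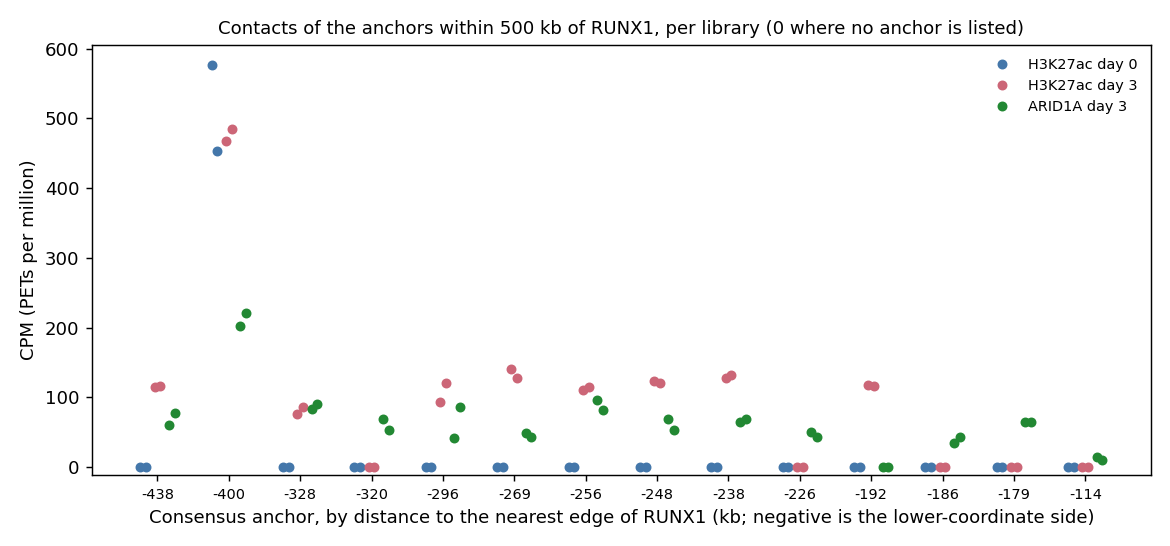
The 14 merged anchors within 500 kb of RUNX1, ordered by distance to the gene in kb (x axis), with CPM in each library (y axis). Points are libraries, and 0 stands for no listed anchor. At day 0 the anchor 400 kb from the gene is the only one with contacts; at day 3 another 8 anchors have 71 to 131 PETs per library.

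The largest loop of this group at day 0 joined chr21:35737961-35742441 to chr21:35743857-35759884, both inside the shared merged anchor, with 45 and 42 PETs. The next 4 day 0 loops ran from this place to anchors 177 to 464 kb further from RUNX1, first among them chr21:35337518-35351269 with 15 and 16 PETs at 407 kb. At day 3 the same place was again first, with 73 and 53 PETs, followed by a loop of 8.24 kb between chr21:35905495-35912533 and chr21:35914008-35920508 with 28 and 29 PETs. In ARID1A the shared place held 17 and 14 PETs, followed by chr21:35825813-35832116 to chr21:35836141-35840311 with 12 and 11. The first loop of each group was thus a short one within the shared anchor, and loops of 143 to 464 kb to the lower-coordinate side were among the first 5 in each group. None of these first 5 ended in or passed over RUNX1.

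Some loops passed over RUNX1 from the lower to the higher side. They held 0 and 2 PETs at day 0, 51 and 62 at day 3, and 20 and 21 in ARID1A, or 3.94 CPM ± 5.58, 59.0 CPM ± 5.82 and 45.4 CPM ± 0.731 (SD, n = 2 each). At day 3 there were 49 such anchor pairs, 15 of them in both replicates, with a median span of 1722 kb. The pair with most PETs, chr21:35746125-35759130 with chr21:37471264-37477235, held 5 and 8. Both day 3 H3K27ac libraries lay above both others, but 8 of the 9 merged day 3 anchors near the gene were not on the day 0 list, and no test was made. Loops passing over ZEB1 held 2 and 6, 8 and 13, and 10 and 16 PETs, and none passed over SNAI2 or ZEB2.

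The 500 kb surroundings were then tested together with fixed windows of 1000 kb, by edgeR's quasi-likelihood test with Benjamini-Hochberg adjustment over all windows. ZEB1 and RUNX1 met the minimum in both comparisons. For H3K27ac day 3 against day 0, RUNX1 rose with a log2 fold change of 0.38 (SE 0.10, adjusted p = 0.000204), and ZEB1 at 0.17 (SE 0.27, adjusted p = 0.569) did not pass. The 72.7% of the 1553 windows that passed make the RUNX1 call a common one, and the median window stood at 0.14. With library totals as the scale, the median moved to 0.74, RUNX1 to 0.98 (adjusted p = 7.76e-09) and ZEB1 to 0.77 (adjusted p = 0.00690), and the share of higher calls went from 53.6% to 79.3%. The RUNX1 call was lost by DESeq2 (0.30, adjusted p = 0.0793) and, by edgeR, without the second day 0 library (0.20, adjusted p = 0.108; 0.56 to 0.60 and called without any other library), with thinned libraries (0.21, adjusted p = 0.106), counting loops with exactly 1 anchor in the window (-0.02, adjusted p = 0.916) and with 1000 kb added (0.08, adjusted p = 0.266). Over loops with a deposited value of 0.01 or less it turned to -0.88 (adjusted p = 0.0195, edgeR).

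At the RUNX1 anchor shared by both times, counted over loops between anchors called at both, the log2 fold change had the opposite sign, -0.37 (SE 0.14, adjusted p = 0.0230, edgeR). It was the 1 such anchor tested near RUNX1, and 39.5% of the 6251 anchors tested passed. The PETs counted there were 129 and 73 at day 0 and 170 and 209 at day 3. The call was lost by DESeq2 (adjusted p = 0.264) and, by edgeR, at a deposited value of 0.01 or less (-0.95, adjusted p = 0.149). It was also lost by edgeR with thinned libraries (-0.36, adjusted p = 0.121) and among anchors with called widths within 1.5 times (-0.18, adjusted p = 0.375). Without the first day 0 library the log2 fold change was -0.02, and without the first day 3 library -0.23. Without the second ones it was -0.62 and -0.43. The rise over the whole RUNX1 surroundings was thus not found at the anchor called at both times. Near ZEB1, 2 anchors were tested, chr10:32041288-32051755 (0.30, SE 0.51) and chr10:32213286-32237036 (0.41, SE 0.35), and neither passed. Of single loops, 2 of 10 near RUNX1 passed, both lower at day 3, and 0 of 2 near ZEB1, against 15.0% of all 16642 loops tested. By DESeq2 neither of the 2 RUNX1 loops that passed was called (adjusted p = 0.140 and 0.377). All 10 RUNX1 loops tested ended on the shared anchor, so they count its PETs again and are not separate support.

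For ARID1A against H3K27ac at day 3, ZEB1 and RUNX1 moved in opposite directions. The ZEB1 surroundings had relatively more ARID1A contacts, with a log2 fold change of 1.26 (SE 0.14, adjusted p = 2.29e-11), and those of RUNX1 relatively fewer, at -0.86 (SE 0.06, adjusted p = 8.61e-17), both by edgeR. In this comparison 82.1% of the 1761 windows passed. A difference between antibodies is one of relative share within each library, and it shares the H3K27ac day 3 libraries with the comparison of the times. Within 500 kb of ZEB1, ARID1A listed 14 merged anchors, of which neither H3K27ac group listed 10 (51.1% of ARID1A anchors genome-wide), among them chr10:32143832-32149195 with 28 and 31 PETs and chr10:32286214-32303826 with 42 and 47. The highest of the ZEB1 surroundings in ARID1A was chr10:32213286-32237036 with 61 and 56 PETs, which held 46 and 43 in H3K27ac at day 3. The nearest ARID1A anchor to ZEB1 lay 17.9 kb below the gene with 1 and 2 PETs.

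Of 8 anchors near RUNX1 tested between the antibodies, 3 passed and all 3 were lower in ARID1A, against 64.0% of the 11052 anchors tested. They were the shared anchor at 400 kb (-0.82, SE 0.14, adjusted p = 5.71e-09, edgeR), chr21:35882283-35891562 (-1.23, SE 0.26, adjusted p = 6.01e-06, edgeR) and chr21:35914008-35921787 (-0.52, SE 0.23, adjusted p = 0.0358, edgeR). The last was lost by DESeq2 (adjusted p = 0.172) and without either ARID1A library (adjusted p = 0.161 and 0.125, edgeR). The other 5 lay between -0.39 and -0.02 on the log2 scale. The 1 anchor tested near ZEB1, chr10:32213286-32237036, did not pass at 0.41 (SE 0.46, adjusted p = 0.443, edgeR). Of 45 RUNX1 loops, 4 passed, all lower in ARID1A, against 33.3% of 28338 loops. These 4 held 0 to 4 PETs per ARID1A library and met the minimum through the H3K27ac libraries alone. Their shared direction thus leans on the filter. None of these 4 passed by DESeq2.

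With 1000 kb added to each gene, TWIST1, PRRX1 and RUNX2 could be tested for the times and these and SNAI2 between the antibodies, by edgeR, with 72.8% and 82.0% of windows passing. The fixed windows behind these shares stayed at 1000 kb, shorter than those of the members. RUNX2 fell by 1.70 from day 0 to day 3 (SE 0.24, adjusted p = 1.09e-11), and by 1.10 with library totals as the scale. PRRX1 rose with 0.74 (SE 0.27, adjusted p = 0.00835), or 1.34 with library totals. At 500 kb without the minimum PRRX1 gave -1.40 (SE 0.73, adjusted p = 0.0813, edgeR), opposite in sign and not called. ZEB1 was called lower at day 3 at this width (-0.46, SE 0.14, adjusted p = 0.00185), opposite in sign to its 500 kb value, and gave 0.13 (adjusted p = 0.341) with library totals. TWIST1 gave -0.51 (SE 0.19, adjusted p = 0.0112), which turned to 0.09 with library totals. Between the antibodies, TWIST1 (1.06, SE 0.12, adjusted p = 5.79e-11), SNAI2 (1.30, SE 0.31, adjusted p = 0.000211) and PRRX1 (0.73, SE 0.13, adjusted p = 3.77e-06) were higher in ARID1A, and RUNX2 did not pass (-0.27, SE 0.24, adjusted p = 0.300). At 500 kb without the minimum PRRX1 gave -0.44 (adjusted p = 0.559, edgeR) and RUNX2 1.09 (adjusted p = 0.0566, edgeR), both opposite in sign and neither called. These windows of over 2000 kb hold other genes, and the contacts counted in them have no end within 5 kb of TWIST1, PRRX1 or SNAI2.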

How the data were processed

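The 7 genes, the rule and the lists were chosen with earlier results of these data known. Per the labels' protocols, libraries were sequenced as paired reads; HiC-Pro, Bowtie2 and hg19 are named in the submitters' processing notes, while their versions and how anchors and loops were called are not stated in those notes. The deposited files list anchor pairs with raw PET counts. Their deposited value from 0 to 1, a p-value or q-value (the files do not say which), served only as a threshold of 0.01. Coordinates are as in the files, which do not say whether they count from 0 or 1; all loops spanned 5 to 2000 kb.

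PETs were summed in pandas 2.3.3 and numpy 2.4.6 under Python 3.11.15. CPM is per 1000000 listed PETs of a library. Windows, anchors (10 PETs or more in 2 libraries) and loops (4 or more) with anchors in both groups were tested in R 4.3.3 with edgeR 4.0.16 (TMM, quasi-likelihood test, Benjamini-Hochberg over all features of the kind, adjusted p under 0.05) on the 2 groups compared. Anchors of different groups were merged by overlap; loops inside a merged anchor were left out of anchor and loop fits. SE is the log2 fold change divided by the root of F. Cytobands come from circlize 0.4.16. Replicates of a group differed by more than sampling noise (chi-square over degrees of freedom 1.45, 1.13 and 1.09). On simulated data with 200 of the 1000 kb windows changed 4-fold, 96% were recovered for the times and 98% for the antibodies. The simulation changed equally many windows up and down and used 1 fixed spread between replicates. In the data 72.7% and 82.1% of windows passed, and the RUNX1 log2 fold change between the times was 0.38. The recovery rates therefore do not carry over to such shares of changed windows or to smaller folds.

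Named features were all 7 genes, the anchor over a gene's start, the 3 anchors with the smallest p and the 3 loops with most PETs per group; others were named after their values were seen. Alternatives were library totals, DESeq2 1.42.0, no minimum, the 0.01 threshold, thinned libraries, each library left out, the replicate number as a block, and other windows. The 500 kb, 250 kb and 1000 kb surroundings and the newer edgeR method were added after seeing the data. Other genes of the programme were not analysed here.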

Additional observations from a re-analysis of the deposited data

How the results depend on the processing

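Of the planned gene windows, no member was tested at the main settings. Without the minimum 1 member, RUNX2, passed for the times. With 20 kb added 1 member, ZEB1, passed between the antibodies (log2 fold change -2.93, adjusted p = 4.23e-06, edgeR), where 80.1% of windows passed. ZEB1 met the minimum there through its 27 and 20 H3K27ac day 3 PETs alone. Its ARID1A contacts came from a different segment, an anchor 17.9 kb below the gene with 1 and 2 PETs. The lower ARID1A value thus followed from the filter and compares no shared site. The other gene window, anchor and loop settings called 0 members within 5 kb. Outside some fits without the minimum, no member entered them, so these counts of 0 were fixed in advance. Over loops with a deposited value of 0.01 or less, ZEB1 went from 24.7 to 11.1 CPM at day 3, and RUNX2 from 23.8 to 7.26, from 8.92 to 3.17 and from 8.95 to 0 CPM. With 0 or 20 kb added these CPM values did not move. The RUNX2 ratio of day 3 to day 0 was 0.375, or 0.402 as a share of the PETs on the chromosome.

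For the 500 kb surroundings between the times, ZEB1 (0.17, not called) went to 0.77 with library totals (called), -0.36 at a value of 0.01 or less (not called) and -0.46 with 1000 kb added (called), and RUNX1 (0.38, called) lost its call at 0.30 by DESeq2, 0.21 with thinned libraries, 0.08 with 1000 kb added and -0.02 counting loops with exactly 1 anchor in the window, and was called at -0.88 at a value of 0.01 or less; the cause was not tested. Leaving out 1 library gave 0.16 to 0.41 for ZEB1 and 0.20 to 0.60 for RUNX1. Between the antibodies, all 30 alternatives kept direction and call, at 0.25 to 1.88 for ZEB1 and -0.97 to -0.52 for RUNX1. All of them sum contacts of anchors that only 1 group lists, so the part played by the separate anchor lists was not tested. Of anchors listed with both antibodies, the 1 tested near ZEB1 did not pass (0.41, SE 0.46, adjusted p = 0.443, edgeR). Near RUNX1, 3 of 8 passed, all lower in ARID1A. RUNX1 between the times could not be fitted with 250 kb added, where day 0 lists no anchor.

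Same-numbered libraries did not deviate together (correlations -0.022 and 0.0058). Replicates of the day 3 groups differed little beyond sampling noise (chi-square over degrees of freedom 1.13 and 1.09), which could hide a shared deviation. Pairing by number was thus not seen and not excluded. With the replicate number as a block, RUNX1 gave 0.38 and -0.87 and ZEB1 0.18 and 1.26, with no call changed among these 4; of the RUNX1 loops, 1 call between the times and 3 between the antibodies were lost.

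Counts over all features moved more. At a value of 0.01 or less, 1129 windows of 1000 kb called between the times became 665, and 3306 windows of 100 kb became 1634 (6067 became 3303 between the antibodies). Anchor calls between the times went from 2471 to 1182 by DESeq2, and loop calls from 2504 to 584 there and to 121 with thinned libraries. Between the antibodies loop calls went from 9432 to 3683 by DESeq2, 1755 thinned and 1 without the minimum. Library totals moved the share of higher calls from 52.4% to 14.2% for anchors and from 55.5% to 19.0% for loops between the times, and from 49.2% to 23.9% and 43.7% to 21.0% between the antibodies. The day 0 libraries are the shallowest, and a contact below their depth was not detectable there.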
